A study of Mus musculus with 6 samples.

Results

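Transcript levels of the tumour suppressor p53, encoded by Trp53 in the mouse, and of 9 of its known target genes were followed in RAW264.7 macrophage-like cells. The members were given by name: Trp53, Mdm2, Cdkn1a, Ccng1, Sesn1, Zmat3, Trp53inp1, Phlda3, Plk2 and Gdf15. All 10 were found by gene symbol among 25124 symbols of the deposited table, and all 10 passed the filter on low values. The comparison asked whether stress-induced genes that rose in cells labelled E4BP4 knockout did so with or without the wider set of p53 targets.

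p53 is a transcription factor that is held low by the ubiquitin ligase Mdm2 and is stabilised, mostly at the protein level, by DNA damage and other stress. It then induces genes for cell cycle arrest, DNA repair, metabolism and cell death, and it induces Mdm2 itself, which closes a feedback loop. Several of its targets are also induced by other stress factors, among them ATF4 and CHOP, which act when amino acids are short or proteins misfold in the endoplasmic reticulum.

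RNA was measured in 3 libraries labelled as RAW264.7 cells with knockout of E4BP4, a bZIP transcription factor encoded by Nfil3, and in 3 libraries of control RAW264.7 cells. RAW264.7 is a widely used murine line derived from a tumour raised with Abelson virus. Both groups were untreated and grown in medium with 25 mM glucose and 10% serum, at fewer than 15 passages. The method of knockout, its clonality and the origin of the replicates (separate cultures or not) are unknown from the labels. The p-values accordingly measure the spread among these libraries alone, and that spread may be technical.

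The libraries labelled knockout held 18.37 M to 19.87 M recovered reads and the controls 15.62 M to 18.11 M (M, mega). Nfil3, the targeted gene, averaged 102.8 ± 2.65 TPM in the knockout-labelled libraries, against 30.1 ± 0.803 TPM in controls (SD, n = 3 each), so its level ran against a loss of transcript, and directions below rest on the labels. TPM is a read number scaled by transcript length and by library. All 10 macrophage markers reached 1 TPM in every library, with summed levels of 4179 to 4324 TPM under the knockout label and 3010 to 3237 TPM in controls. The sum was carried mainly by the lysozyme gene Lyz2, at 2218 ± 49.2 TPM under the knockout label and 1069 ± 78.3 TPM in controls (SD, n = 3 each). Of these markers 3 were called higher and 5 lower in limma (described below), against 26.7% and 23.4% of all tested genes. Those lower included the receptor genes Fcgr1 and Csf1r, with log2 fold changes of −1.68 and −0.64. The median of the list was −0.05, and the part of this list in the results was not tested. Markers of fibroblasts, epithelium and endothelium summed to at most 1.36 TPM in any library, and Cd3g, Lum and Krt8 were listed at 0 throughout. Of the T cell markers only Lck, a kinase gene, reached 1 TPM in every library, and that list summed to 4.10 to 4.22 TPM under the knockout label and 2.58 to 2.71 TPM in controls; its part in the results was not tested.

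The p53 genes did not move one way. Under the knockout label Gdf15, Mdm2, Plk2 and Zmat3 were higher, Phlda3, Sesn1 and Cdkn1a were lower, and Trp53, Ccng1 and Trp53inp1 did not pass the test. The test was limma on log2(TPM + 1), with Benjamini-Hochberg adjustment over all 11257 genes tested and a threshold of 0.05. By that rule 50.1% of all tested genes were called, 26.7% as higher and 23.4% as lower, so 7 calls among 10 members are to be read against a high background. The median log2 fold change of the members was 0.10, against 0.02 for all genes. Changes of at least 2-fold on that scale were found in 3 members, Gdf15 upward and Sesn1 and Phlda3 downward, where 2.25% of all tested genes changed that much. In 9 of the 10 members the groups did not overlap, against 58.5% of all tested genes.

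**Figure D1:**
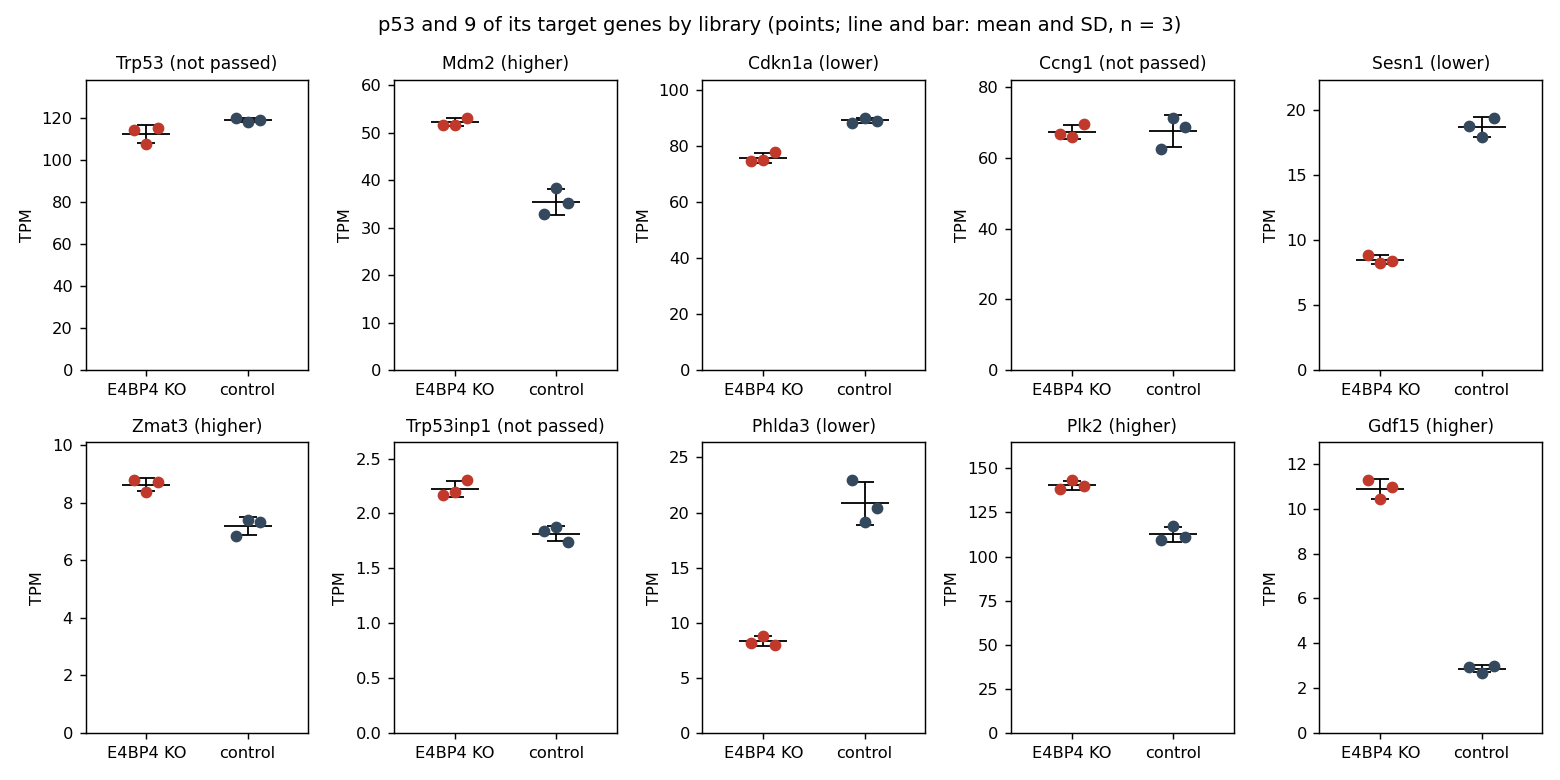
TPM of Trp53 and 9 target genes in each library, with E4BP4 knockout libraries (red) left of controls (dark blue); lines and bars give mean and SD of 3 libraries, every axis starts at 0, and the title of each panel gives the limma call. Gdf15, Mdm2, Plk2 and Zmat3 lie above their controls, Cdkn1a, Sesn1 and Phlda3 below, and Ccng1 overlaps.

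Trp53 itself (NM_011640, mm10 chromosome 11, 69580359 to 69591873, plus strand) was abundant in both groups, above 91.8% of tested genes under the knockout label and 92.1% in controls. It measured 114, 107 and 115 TPM in the knockout-labelled libraries, against 120.0, 118 and 119 TPM in controls, from 2773 to 3322 recovered reads per library. The knockout-labelled libraries were all slightly below the controls, without overlap. The log2 fold change was −0.08 (SE 0.0379) and did not pass in limma (adjusted p = 0.0909). In the authors' deposited table it was −0.10 with an adjusted p of 0.0898. The call depended on the scaling, since upper-quartile scaling gave −0.12 (adjusted p = 0.0321). In limma-voom on recovered reads, which changes the model as well, it was −0.11 (adjusted p = 0.0386). RNA levels do not show the amount or activity of the p53 protein.

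Mdm2, the ligase that marks p53 for degradation and is itself a p53 target, was higher under the knockout label. It measured 51.6, 51.7 and 53.1 TPM in the knockout-labelled libraries, against 32.8, 38.3 and 35.1 TPM in controls. Every library labelled knockout exceeded every control, and the controls were the more spread of the groups. The ratio of means was 1.47 and the log2 fold change 0.55 (SE 0.0547, limma adjusted p = 3.35e-05). Mdm2 lies on chromosome 10 from 117688875 to 117710758, minus strand. Its value is deposited under 1 transcript. Whether that value separates the constitutive promoter from the p53-responsive internal one was not checked.

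Cdkn1a, Ccng1 and Plk2 act on the cell cycle. Cdkn1a (chromosome 17, 29093769 to 29100722, plus strand) encodes p21, the inhibitor of cyclin-dependent kinases through which p53 halts division. It measured 74.8, 75.0 and 77.9 TPM in the knockout-labelled libraries, against 88.5, 90.2 and 89.2 TPM in controls. The groups stood apart, with all libraries labelled knockout lower. The fall was small, to 0.850 of the control mean (log2 fold change −0.23, SE 0.0351, limma adjusted p = 0.000478). An unconfirmed GENCODE transcript on the opposite strand shares exon bases with Cdkn1a, and the library kit as named does not mark strand, so its reads could not be told apart.

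Ccng1 (chromosome 11, 40748552 to 40755286, minus strand) encodes cyclin G1, which brings a phosphatase to Mdm2. It measured 66.6, 65.8 and 69.7 TPM in the knockout-labelled libraries, against 62.5, 71.4 and 68.8 TPM in controls, and the groups overlapped. The log2 fold change was −0.00 (SE 0.0521, limma adjusted p = 0.986). Plk2 (chromosome 13, 110395044 to 110400843, plus strand), a polo-like kinase gene that also responds early to growth signals, measured 138, 143 and 140.1 TPM in the knockout-labelled libraries, against 109.6, 117 and 111 TPM in controls. Its lowest library labelled knockout was above the highest control, with a ratio of 1.25 (log2 fold change 0.32, SE 0.0385, limma adjusted p = 0.000119).

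The start regions of these cell cycle genes are shown because 2 of them hold a near-complete p53 response element: that of Cdkn1a, whose transcript fell, and that of Ccng1, which did not pass. Sequences are RefSeq windows of GRCm38.p6 (the mm10 assembly), 250 bases before to 50 after an annotated start, 5′ to 3′ on the gene's strand. The Cdkn1a window is chr17:29090729-29091028, plus strand, at the start of a transcript longer than the one deposited, and the Ccng1 window is chr11:40755237-40755536, minus strand. Capitals mark a match to the p53 response element, a pair of adjacent 10-base motifs, at 19 of 20 positions. The Plk2 window is chr13:110394794-110395093, plus strand, and its capitals mark TGACGTCA, the cyclic AMP response element bound by factors of the ATF and CREB family.
Cdkn1a: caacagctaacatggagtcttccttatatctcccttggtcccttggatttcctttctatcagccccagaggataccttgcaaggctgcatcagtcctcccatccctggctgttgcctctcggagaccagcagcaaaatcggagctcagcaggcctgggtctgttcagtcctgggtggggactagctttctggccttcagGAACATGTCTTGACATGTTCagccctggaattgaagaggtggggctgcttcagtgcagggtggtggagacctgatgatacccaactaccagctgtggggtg
Ccng1: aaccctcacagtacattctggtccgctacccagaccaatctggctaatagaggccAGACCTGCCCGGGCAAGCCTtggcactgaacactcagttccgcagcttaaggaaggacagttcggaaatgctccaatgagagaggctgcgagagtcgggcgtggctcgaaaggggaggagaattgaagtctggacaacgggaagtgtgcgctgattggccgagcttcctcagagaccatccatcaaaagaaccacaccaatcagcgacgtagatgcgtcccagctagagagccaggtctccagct
Plk2: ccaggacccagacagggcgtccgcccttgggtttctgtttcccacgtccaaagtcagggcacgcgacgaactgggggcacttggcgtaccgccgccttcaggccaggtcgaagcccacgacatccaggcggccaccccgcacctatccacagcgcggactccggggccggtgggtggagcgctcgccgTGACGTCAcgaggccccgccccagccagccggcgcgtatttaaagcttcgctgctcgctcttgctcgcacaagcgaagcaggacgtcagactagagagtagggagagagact

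The Cdkn1a element lies at 29090928 to 29090947, which is 31 bases before the start of that longer transcript and 2821 bases before the start of the deposited one. The window at the start of the deposited Cdkn1a transcript held no such element. The Ccng1 element lies at 40755462 to 40755481, 175 bases before the start. With at most 1 mismatch, such an element was present in 2 of 11 windows of the members and in 0.0883% of all 32851 windows. The element is its own reverse complement, so both strands were searched at once. TGACGTCA was present in 1 member window, that of Plk2, and in 1.79% of all windows. The D-box letters bound by E4BP4, TTATGTAA or TTACGTAA, were in 0 member windows and in 1.06% of all windows, and TGATGNAAN, the composite element of CHOP and ATF4, in 0 member windows and 3.95% of all, each on both strands. Windows were given for 8 of the 10 members, and Zmat3 and Trp53inp1 had none. A match is a match of letters, not a measured binding site. Bases outside these windows, such as the internal promoter of Mdm2, were not searched.

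Sesn1 and Phlda3, which both restrain growth signalling, fell the most among the members. Sesn1 (chromosome 10, 41887439 to 41908436, plus strand) encodes a sestrin, a stress protein that limits mTORC1. It measured 8.88, 8.21 and 8.41 TPM in the knockout-labelled libraries, against 18.8, 17.9 and 19.4 TPM in controls, from 356 to 359 against 669 to 768 recovered reads. The groups were far apart relative to their spread, with a ratio of 0.454 (log2 fold change −1.05, SE 0.0538, limma adjusted p = 4.91e-07). Phlda3 (chromosome 1, 135766085 to 135769134, plus strand) encodes a small pleckstrin homology protein that competes with the kinase Akt for membrane lipids. It measured 8.20, 8.82 and 7.97 TPM in the knockout-labelled libraries, against 22.9, 19.2 and 20.4 TPM in controls. All libraries labelled knockout were below all controls, with a ratio of 0.400 (log2 fold change −1.22, SE 0.0698, limma adjusted p = 1.00e-06).

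Gdf15 rose the most. It encodes a secreted cytokine of the TGF-β superfamily and is induced by p53 and, in other settings, by ATF4 and CHOP. It measured 11.3, 10.4 and 11.0 TPM in the knockout-labelled libraries, against 2.96, 2.69 and 2.96 TPM in controls, from 239 to 246 against 54 to 64 recovered reads. No library labelled knockout came near the controls. The ratio was 3.80 (log2 fold change 1.62, SE 0.0650, limma adjusted p = 1.02e-07). In the authors' deposited table, which names another transcript of Gdf15, the log2 fold change was 1.89. On the authors' stabilized values from that same table, limma gave 0.79 (adjusted p = 1.51e-12). Gdf15 lies on chromosome 8 from 70629393 to 70632456, minus strand.

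Zmat3 rose by a small amount and Trp53inp1 did not pass. Zmat3, an RNA-binding zinc finger gene on chromosome 3 (32334794 to 32365665, minus strand), measured 8.78, 8.39 and 8.74 TPM in the knockout-labelled libraries, against 6.85, 7.41 and 7.34 TPM in controls. The groups did not overlap, and the ratio was 1.20 (log2 fold change 0.23, SE 0.0574, limma adjusted p = 0.00765). Trp53inp1 (chromosome 4, 11156441 to 11174379, plus strand), whose nuclear protein takes part in p53 phosphorylation and autophagy, measured 2.17, 2.20 and 2.30 TPM in the knockout-labelled libraries, against 1.84, 1.87 and 1.74 TPM in controls. The libraries labelled knockout were again all above the controls, but the log2 fold change of 0.19 (SE 0.0833) did not pass in limma (adjusted p = 0.0801). It rested on 124 to 202 recovered reads per library and passed in limma-voom on those reads (log2 fold change 0.27, adjusted p = 0.0273) and on the authors' deposited stabilized values (0.13, adjusted p = 0.0177). In the authors' deposited table its log2 fold change was 0.28 with an adjusted p of 0.113.

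On the TPM scale, which is per length, the order of mean levels under the knockout label was Plk2, Trp53, Cdkn1a, Ccng1, Mdm2, Gdf15, Zmat3, Sesn1, Phlda3 and Trp53inp1. In the controls it was Trp53, Plk2, Cdkn1a, Ccng1, Mdm2, Phlda3, Sesn1, Zmat3, Gdf15 and Trp53inp1. Zmat3, Sesn1 and Phlda3 overlapped their neighbours under the knockout label, at 8.64, 8.50 and 8.33 TPM, and Phlda3 and Sesn1 overlapped in the controls, at 20.8 and 18.7 TPM. Gdf15 stood sixth in one order and ninth in the other. The replicate spread was small throughout, with coefficients of variation of 1.65% to 5.24% under the knockout label and 0.929% to 9.20% in the controls.

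The genes with the pattern most like that of Trp53, by Pearson correlation of log2(TPM + 1) over the 6 libraries among 8956 genes with a mean of at least 5 TPM, were Slc2a8, H2-K2 and Ddx56, with correlations of 0.996, 0.992 and 0.990. The groups differed in Trp53 without overlap, so the correlations partly restate the difference between groups and are descriptions. Of the targets in that ranking, Sesn1 (0.824), Cdkn1a (0.822) and Phlda3 (0.772) ran with Trp53, and Plk2 (−0.855), Mdm2 (−0.794), Gdf15 (−0.771) and Zmat3 (−0.706) ran against it, while Ccng1 was near 0 at 0.05.

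A wider list of 53 other p53 targets, written from textbook knowledge, held genes called in both directions. It and the lists set beside it below were chosen with earlier results of these data known. Of 46 tested, 14 were higher, 13 lower and 19 did not pass in limma, or 58.7% called against 50.1% of all genes, with a median log2 fold change of −0.02. Among targets for arrest and feedback 5 of 12 rose and 4 fell, among those for cell death 2 of 14 rose and 4 fell, and among those for repair and metabolism 7 of 20 rose and 5 fell. A further 7 of the 53 were not tested: Trp53i3 was not analysed here, and Trp53cor1, Tnfrsf10b, Perp, Eda2r, Trp53i11 and Ak1 were below the filter, where Trp53cor1 measured 0.736 ± 0.120 TPM under the knockout label and 0.336 ± 0.0567 TPM in controls (SD, n = 3 each).

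The targets that rose most were Gadd45a, Sesn2, Bbc3 and Ephx1, and 3 of these 4 stood on the list of genes also induced by other stress factors. Gadd45a, a growth arrest gene, averaged 76.2 ± 7.27 TPM in the knockout-labelled libraries, against 9.42 ± 0.756 TPM in controls (SD, n = 3 each; log2 fold change 2.89). Sesn2, the sestrin induced by ATF4 as well as p53, averaged 39.4 ± 1.19 TPM under the knockout label and 12.9 ± 1.05 TPM in controls, opposite in direction to its paralog Sesn1. Bbc3, which encodes the death protein PUMA, averaged 53.7 ± 4.82 TPM under the knockout label and 18.3 ± 0.231 TPM in controls. Ephx1, an epoxide hydrolase gene, averaged 2.76 ± 0.250 TPM under the knockout label and 0.668 ± 0.159 TPM in controls, with a log2 fold change of 1.18 that was 0.38 on the stabilized values and 2.02 in limma-voom. Ephx1 met the filter through the knockout-labelled libraries alone and could only count as higher; without it 13 of 45 targets were higher and 13 lower, at a median of −0.04. These 4 passed in limma at adjusted p-values from 1.12e-08 for Gadd45a to 2.08e-05 for Ephx1.

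The targets that fell most fell by less. Pml, the organiser of nuclear bodies and also an interferon-induced gene, averaged 8.54 ± 0.431 TPM under the knockout label and 14.2 ± 0.533 TPM in controls (SD, n = 3 each), with a log2 fold change of −0.68 (limma adjusted p = 1.12e-05). Gpx1, a glutathione peroxidase gene, Bid, a death gene of the BCL2 family, and Gtse1, which carries p53 out of the nucleus, had log2 fold changes of −0.53, −0.46 and −0.43. Fas, the death receptor gene, averaged 4.08 ± 0.209 TPM under the knockout label and 4.38 ± 0.289 TPM in controls and did not pass (adjusted p = 0.380), and the phosphatase gene Ppm1d, a feedback target, averaged 10.6 TPM in both groups (adjusted p = 0.984). Bax, the death effector, rose 1.26-fold to 308.0 ± 8.78 TPM, against 244.5 ± 3.95 TPM in controls. Bax, Bbc3 and Pold1 lie on chromosome 7, whose 878 tested genes had a median log2 fold change of 0.24. Of those 878 genes 520 were called higher and 73 lower. Among the 40 tested targets outside that chromosome 11 rose, Ephx1 included, and 13 fell. That was 60% called, against 48.6% of all 10379 genes tested outside it.

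Of 11 genes listed as induced by p53 and by other stress factors, 10 were tested, 7 rose, 2 fell and 1 did not pass in limma, where 26.7% of all genes were called higher and 23.4% lower, with a median log2 fold change of 0.62. Besides Gdf15, Plk2, Gadd45a, Sesn2 and Bbc3, the mTORC1 inhibitor gene Ddit4 rose 1.92-fold and the bZIP gene Atf3 rose 1.25-fold. Those lower were Cdkn1a and Btg2, an antiproliferative gene with a log2 fold change of −0.19 (adjusted p = 0.0394) whose groups overlapped. The Btg2 call was lost without E4BP4 knockout replicate 1 (adjusted p = 0.106) or 2 (0.117), without control replicate 2 (0.122) or 3 (0.111), and with no filter (0.0918). Pmaip1, which encodes the death protein NOXA, averaged 28.0 ± 1.56 TPM under the knockout label and 26.5 ± 0.758 TPM in controls and did not pass (adjusted p = 0.248). With the shared genes left out, 13 of 47 tested p53 targets rose and 14 fell, at a median of −0.04, or 57.4% called, near the 50.1% of all genes. Ephx1 stood among those that rose and could only count as higher.

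The tested genes of the ATF4 and CHOP list, set beside the p53 targets, moved one way. This list, too, was chosen with earlier results of these data known. Of 25 listed genes 22 were tested, and all 22 rose in limma, with a median log2 fold change of 0.96 and 11 at or above 1, where 26.7% of all genes were called higher. Phgdh, Stc2 and Vegfa were below the filter. Vegfa, near the floor, ran the other way without overlap, at 0.0123 TPM under the knockout label and 0.138 TPM in controls. With the genes shared with the p53 lists left out, 20 of 20 rose. Slc7a11, a cystine transporter gene, stood in both counts, met the filter through the knockout-labelled libraries alone and so could only count as higher. Without it 21 of 21 tested genes of the full list rose, 10 of them by at least 1, at a median of 0.92. Chac1, which degrades glutathione, averaged 92.5 ± 2.13 TPM under the knockout label and 9.30 ± 0.677 TPM in controls (SD, n = 3 each). The log2 fold changes of Chac1, of Ddit3, which encodes CHOP, and of the pseudokinase gene Trib3 were 3.18, 2.27 and 1.94. Atf5, Ppp1r15a and Nupr1 of this list lie on chromosome 7 (median 0.24) and had log2 fold changes of 0.75, 1.48 and 1.57.

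**Figure D2:**
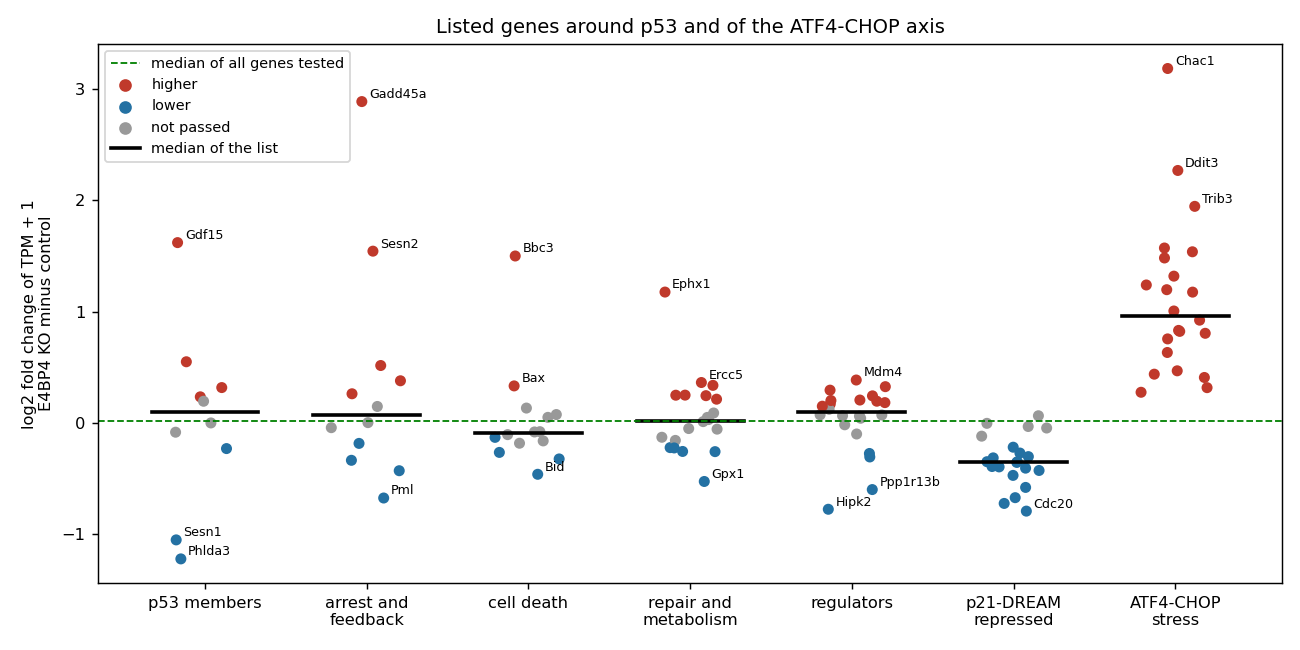
Log2 fold change of TPM + 1, E4BP4 knockout minus control, for each tested gene of 7 lists; red points were called higher, blue lower and grey did not pass in limma, black lines are list medians and the dashed line is the median of all genes. The p53 lists lie on both sides of 0, the p21-DREAM list lies at a median of −0.35 and the ATF4-CHOP list at 0.96.

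The called genes among those that act on p53 changed by less than 1 on the log2 scale. Of 25 listed regulators, cofactors and paralogs 22 were tested, and 10 were higher, 4 lower and 8 did not pass in limma, or 63.6% called against 50.1% of all genes. The count of 10 was 6 without a filter on low values, 4 without E4BP4 knockout replicate 1, 5 without replicate 3 of that group and 6 without control replicate 3. Mdm4, the partner of Mdm2 that blocks p53 activity, rose 1.31-fold to 78.6 ± 3.18 TPM, against 60.0 ± 2.01 TPM in controls (SD, n = 3 each). The ubiquitin ligase gene Rchy1 and the nucleolar gene Npm1 rose by 0.32 and 0.29 on the log2 scale. Ppp1r13l, also called higher, lies on chromosome 7 (median 0.24) and had a log2 fold change of 0.24. Hipk2, a kinase that phosphorylates p53, averaged 11.2 ± 1.10 TPM under the knockout label and 19.8 ± 1.21 TPM in controls, and Ppp1r13b and Trp53bp1, which encode the p53 partners ASPP1 and 53BP1, had log2 fold changes of −0.60 and −0.31. Cdkn2a, deposited as transcript NM_001040654, was listed at 0 TPM in all 6 libraries. Whether that transcript covers the exons of the Mdm2 inhibitor ARF was not checked. The p53 paralogs Trp63 and Trp73 averaged at most 0.0257 TPM in either group.

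Cell cycle genes that are repressed through p21 and the DREAM complex when p53 is active were mostly lower under the knockout label, as was Cdkn1a. Of 22 tested, 17 fell and 0 rose in limma, 5 did not pass, and the median log2 fold change was −0.35, where 23.4% of all genes were called lower. Cdc20, which switches on the anaphase-promoting complex, averaged 49.1 ± 0.643 TPM under the knockout label and 85.9 ± 1.65 TPM in controls (SD, n = 3 each). The mitotic kinase gene Aurka and the kinetochore gene Cenpf had log2 fold changes of −0.72 and −0.67, and the proliferation marker Mki67 had −0.00 and did not pass (adjusted p = 0.957). Mki67 lies on chromosome 7, whose tested genes had a median log2 fold change of 0.24, as does Plk1 of this list, at −0.47. In bulk RNA, fewer cells in a phase of the cycle and less RNA per cell cannot be told apart.

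**Figure D3:**
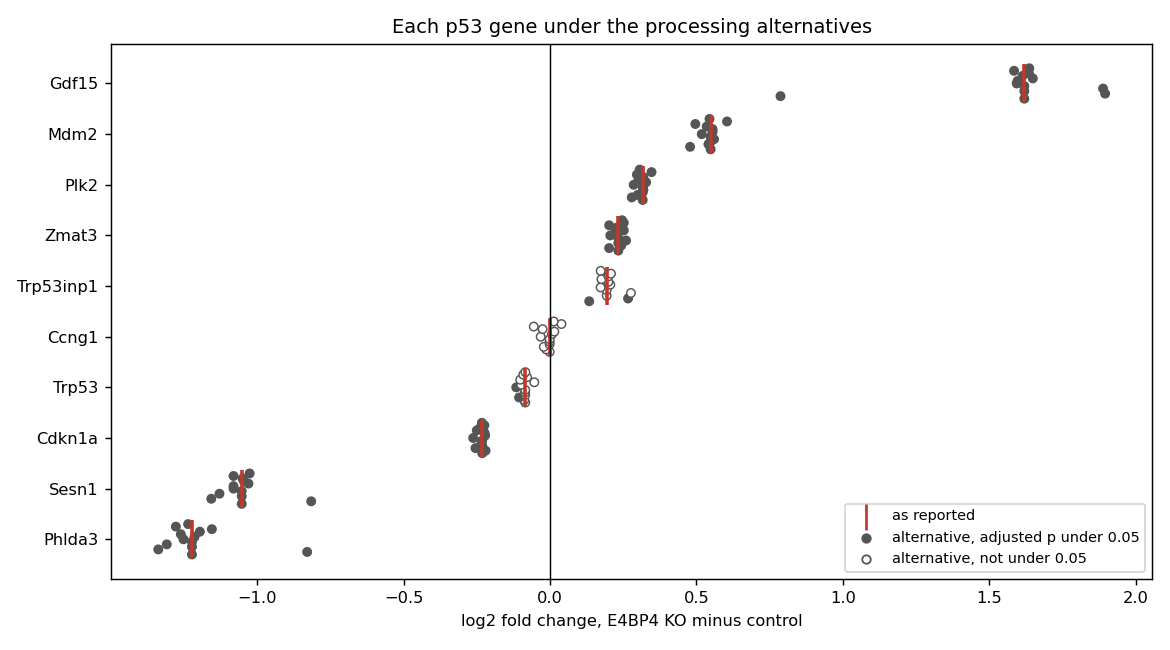
Log2 fold change of Trp53 and 9 target genes, E4BP4 knockout minus control, as reported (red line) and under each processing alternative (circles, filled where the adjusted p was under 0.05). Gdf15, Mdm2, Plk2, Zmat3, Cdkn1a, Sesn1 and Phlda3 kept their side of 0 and of the threshold, and Ccng1 crossed 0.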

How the data were processed

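Polyadenylated RNA from 200 ng of total RNA was sequenced with an NEBNext Ultra kit, per the labels' protocols. Per the submitters' processing notes the tools were HOMER 4.11.1, STAR 2.7.5a, bcl2fastq and DESeq2, on mm10, with no role or order. The authors deposited TPM values for 25124 symbols, each with 1 RefSeq transcript and its length, and a second table of 24421 symbols with stabilized log2 values per library (transform not given in the sources used here), a log2 fold change and p-values of their own comparison. Its header reads WT vs. TG, and the sign matched knockout minus control in 100% of 3795 genes beyond 1 on the log2 scale. It names other transcripts than the TPM values do for Trp53, Mdm2, Sesn1, Trp53inp1 and Gdf15. What that does to their values was not tested.

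Neither table held counts, so the stated replacement for a count model was used: limma 3.58.1 in R 4.3.3 with a mean-variance trend on log2(TPM + 1), genes with at least 1 TPM in at least 3 of 6 libraries, no covariates, two-sided. This scale understates the change of low genes, and ratios are of mean TPM. TPM times length came out whole, in units of 1 step for each library, within 0.1 for 100% of values checked (20% by chance). The reads so recovered gave depths and an alternative fit. How reads of paralogs or pseudogenes were assigned is not given. Replicates of a group differed by 1.74 to 5.50 chi-square units per degree of freedom, so all 6 libraries were counted. Fits were also run on simulated data, with far fewer changed genes than were called here, so that run does not test these calls.

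The members and lists were chosen with earlier results of these data known. Named genes were the members, Nfil3, the largest changes in each list past the threshold without overlap (up to 4 each way for the other p53 targets, up to 3 for the rest), the genes shared with other stress factors, and the 3 most like Trp53. Other genes were named after their values were seen. Alternatives were another pseudocount, 2 filters, another scaling, limma-voom, the stabilized values, a replicate block and each library left out.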

Additional observations from a re-analysis of the deposited data

How the results depend on the processing

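Across 13 alternatives, Gdf15, Mdm2, Plk2 and Zmat3 stayed higher and Sesn1, Phlda3 and Cdkn1a stayed lower under the knockout label, with the test passed in each. The log2 fold change ranged from 0.79 to 1.90 for Gdf15 and from −1.34 to −0.83 for Phlda3, with the values nearest 0 on the stabilized scale. Ccng1 ranged from −0.056 to 0.039 with a library left out, and passed in none of the 13. The count of p53 regulators called higher, 10 as reported, was 6 with no filter on low values and 4 to 10 with a library left out; the cause was not tested. The other 9 counts stayed within 1.5 times. With the replicate number as a block, 2794 genes were higher and 2503 lower, and no call of a member changed. Same-numbered libraries of the groups did not deviate together (correlations −0.0133, −0.0578 and 0.00302), and not every library correlated best with its own number. The H2-K2 and Ddx56 calls were lost under 2 and 5 alternatives. Ephx1 gave no value without any 1 knockout-labelled library, or with a filter of 5 TPM, since it then did not reach the filter, and Trp53inp1 gave none with a filter of 5 TPM. Of the members that did not pass, Trp53inp1 had the fewest reads, 124 to 202 per library, and the 6 p53 targets below the filter were not tested.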
